A study of Homo sapiens with 16 samples.

Results

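This comparison sets lentiviral CRISPR guides against antisense oligonucleotides (ASOs, here oligos), 2 agents aimed at the same long non-coding RNA in the same lines, each with non-targeting controls. It used the 12 libraries of CUTLL1 and KOPTK1, 2 human T-ALL lines (acute lymphoblastic leukaemia of T cells), out of 16 RNA-seq libraries in the series. The members were chosen by line and delivery alone: 6 libraries came from cells infected with guide lentivirus and 6 from cells with oligo in the medium. The 4 libraries of the third line, HPB-ALL, had guides only and entered no comparison between deliveries.

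In each line the guide groups were 1 library with a non-targeting guide (guide control) and 2 with guides against the long non-coding RNA lnrCXCR4 (guide 1 and guide 2). The oligo groups were 1 library with a scrambled ASO (oligo control) and 2 with ASOs against lnrCXCR4 (oligo 1 and oligo 2), all at 1 uM. Every group grew in RPMI with serum, RNA was column-purified, and the same directional library kit was used, per the labels' protocols. The titles number the targeted libraries as guides or ASOs while their descriptions call them replicates, and no label states separate cultures. The spread behind each p-value is therefore that of these libraries, and it may be technical. Not given in the sources used here are the time after treatment, the form of Cas9, the viral dose, any drug selection and dates of handling. Untreated cells were not analysed here, and whatever was done differently to guide and oligo cultures cannot be told apart from delivery itself.

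A lentiviral vector fuses with the cell, copies its RNA genome into DNA and integrates it, and its nucleic acids can be met by sensors such as RIG-I, the endosomal Toll-like receptors and the cGAS-STING route, which lead to type I interferon and its target genes. A cutting Cas9 leaves DNA breaks, which call on repair enzymes and, where p53 works, on p53 target genes. An ASO added to the medium enters by endocytosis without a virus, leaves endosomes in part, binds nuclear and paraspeckle proteins, and recruits RNase H1 to cleave the RNA it pairs with. The gene lists below follow these roles, from sensing to uptake, damage, stress and T-cell identity.

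All 12 libraries carried T-lineage transcripts. CD3D, a chain of the T-cell receptor complex, ran from 16098 normalised counts in KOPTK1 guide 2 to 35744 in the CUTLL1 guide control. The B-cell factor PAX5 stayed at or below 1.34 and the epithelial keratin KRT19 was listed at 0 throughout. These genes do not stand for all markers of other cell types. The sum of 12 B-lineage markers was 338 to 7796 per library, and that of 14 myeloid markers 4348 to 11779. Recovered depth was 36427450 to 72178929 reads per library. The table holds 0 entries named lnrCXCR4 and 0 named for Cas9 or a vector part, so neither the target nor the delivered construct checks the labels. Trace transcripts of 2 kinds set single libraries apart and are described with the results they touch: genes of the other line, most in the CUTLL1 oligo control, and fibroblast-type genes in KOPTK1 guide 1. Estimates that rest mainly on these libraries are given with and without them.

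The first question was how far guide and oligo libraries of the same line and arm lay from each other, where arm means control or targeted. Distance was measured as the chi-square per gene between the recovered reads of a pair of libraries, over genes whose reads in the pair summed to 50 or more, and is 1 when they differ by counting noise alone. Libraries of the same line, arm and delivery lay 2.34 to 3.74 apart in CUTLL1 (2 pairs) and 4.10 to 6.75 apart in KOPTK1 (2 pairs). Libraries of the same line and arm but the other delivery lay 1.73 to 5.10 apart in CUTLL1, with a median of 2.83 over 5 pairs, and 3.79 to 14.5 apart in KOPTK1, with a median of 4.29 over 5 pairs. The ranges within and between deliveries overlapped in both lines. Pairs from the other arm of the same line lay 168 to 270 apart, and pairs from different lines 241 to 524 apart.

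The closest pair of all crossed the deliveries: CUTLL1 guide 1 and CUTLL1 oligo 1 differed by 1.73, less than guide 1 differed from guide 2 (3.74) or oligo 1 from oligo 2 (2.34). The most distant pair within a line and arm was KOPTK1 guide 2 and KOPTK1 oligo 1, at 14.5, while KOPTK1 guide 1 lay only 3.79 from KOPTK1 oligo 2. The controls of the 2 deliveries, 1 library each, were 2.29 apart in CUTLL1 and 4.06 apart in KOPTK1. No pair was at or below counting noise. Every library was counted as a sample of its own, although this distance cannot tell separate cultures from separate preparations of 1 culture. In median absolute log2 difference per gene, guide and oligo libraries of 1 line and arm differed by 0.049 to 0.072 in CUTLL1 and by 0.061 to 0.12 in KOPTK1.

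**Figure D1:**
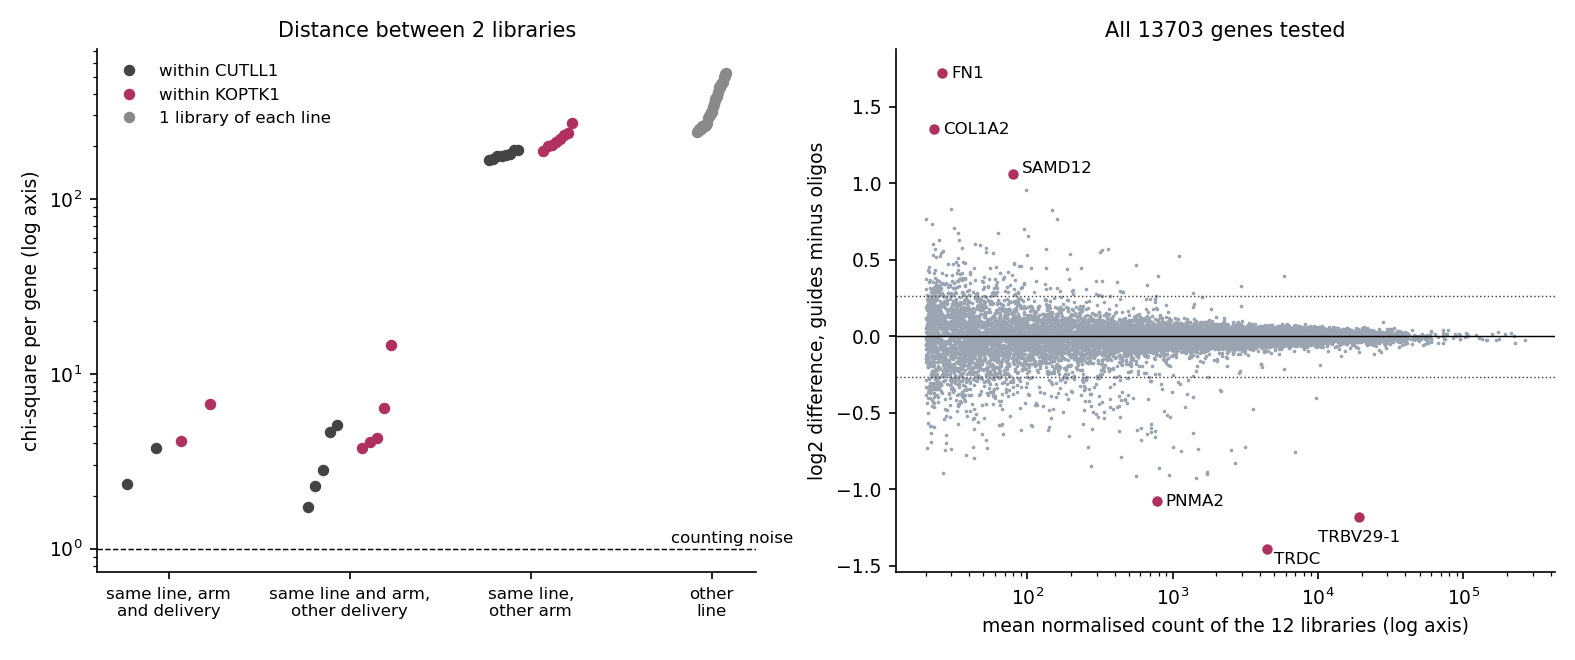
The left panel plots the chi-square per gene between 2 libraries on a log axis, 1 point per pair, by what the pair shares. Pairs that differ in delivery overlap pairs that share it (1.73 to 14.5 against 2.34 to 6.75), and all lie below pairs from the other arm (168 or more). The right panel plots the log2 difference of guides minus oligos against the mean normalised count for each gene tested, with dotted lines at a 1.2-fold difference and the 6 genes past a 2-fold difference named.

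Each gene was then tested for the average guide minus oligo difference within line and arm, on log2(normalised count + 1) with limma and Benjamini-Hochberg adjustment. Of 13703 genes tested, with a mean count of 20 or more, 0 were higher and 0 lower with guides at an adjusted p under 0.05 (0%), and the smallest adjusted p was 0.737. At an unadjusted p under 0.05, 272 genes were higher with guides (1.98%) and 571 lower (4.17%), together 843 (6.15%). Each count at an unadjusted p moved with single libraries, from 171 higher and 318 lower without CUTLL1 guide 2 to 498 higher without the KOPTK1 oligo control and 971 lower without the KOPTK1 guide control. On recovered reads of 11 libraries edgeR's quasi-likelihood test also called 0 in each direction, with 215 higher and 343 lower at an unadjusted p under 0.05. DESeq2 called 1 gene, COL1A2, which was chosen after its values were seen and is counted in KOPTK1 guide 1 alone (adjusted p = 0.000148, with 103 higher and 168 lower at an unadjusted p under 0.05).

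The intervals show what size of average difference, over both lines and arms, these libraries leave room for. They do not bound an effect in 1 line or 1 arm. Targeted libraries, at 2 per line and delivery against 1 control, weigh more in that average. The 95% interval of the difference reached a median of 0.081 on the log2 scale to either side of the estimate. It lay wholly within a 1.2-fold difference either way for 10182 genes (74.3%), within 1.5-fold for 12598 (91.9%) and within 2-fold for 13489 (98.4%). Among the 7447 genes with a mean of 1000 or more, 99% had an interval within 1.2-fold and 91.8% within 1.1-fold.

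In the same fit the other terms were far larger. Arm was called for 11014 genes (80.4%) and line for 11587 (84.6%). The median absolute log2 difference was 0.034 for delivery, 0.36 for arm and 0.40 for line, and its 95th percentile was 0.24, 1.83 and 4.82. A more than 2-fold estimate was found for 6 genes by delivery, 2061 by arm and 2987 by line.

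Those 6 genes fall into 3 kinds, and none passed the test. FN1 and COL1A2, which encode fibronectin and a collagen chain, rest on KOPTK1 guide 1: their differences were 1.72 and 1.35 with all libraries, and 0.61 and 0 without it. TRDC, TRBV29-1 and PNMA2 are KOPTK1 genes found at trace level in CUTLL1. Their differences were -1.39, -1.18 and -1.08 with all libraries, and -0.69, -0.59 and -0.59 without the CUTLL1 oligo control. These leave-out values keep the genes tested with all 12 libraries. SAMD12 had an estimate of 1.06 (95% interval 0.38 to 1.74, adjusted p = 0.737 in limma, n = 6 and 6). In CUTLL1 SAMD12 read 219 in the guide control and 208 in the oligo control, 126 and 159 in the guide-targeted libraries and 120 and 99.0 in the oligo-targeted ones. In KOPTK1 it read 9.69 and 6.52 in the controls, 4.93 and 4.60 with guides and 0 and 0 with oligos. The guide libraries thus lay above the oligo libraries in all 4 line-by-arm cells, but the size of the estimate comes from KOPTK1, where the gene was at 10 reads or fewer per library.

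Ordering within cells gives a second description that needs no model. In 88 genes (0.642%) each guide library lay above each oligo library in all 4 cells, and in 147 (1.07%) each lay below. Delivery can be exchanged within line and arm in 144 ways, so either order also arises in some genes by chance. Control cells hold 1 library per delivery and cannot overlap. Genes named below for a small p were picked from these same values, so their order and intervals add no separate evidence. The mean of the guide libraries was above that of the oligo libraries in all 4 cells for 664 genes (4.85%) and below it for 655 (4.78%).

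The interferon list is the one that viral entry would touch first, and 0 of its 31 tested members passed. At an unadjusted p under 0.05, 2 were higher and 5 lower, where 1.98% of all genes tested were higher and 4.17% lower. Those shares are the background for each list count below. The median difference over the list was 0.017, against -0.0012 over all genes tested, with members from -0.44 to 0.28. IRF7, a transcription factor that amplifies interferon signalling, had the smallest p of the list (adjusted p = 0.737 in limma). Its level was 158 in the guide control and 170 in the oligo control of CUTLL1, 1110 and 1113 in the guide-targeted libraries and 1182 and 1173 in the oligo-targeted ones. The KOPTK1 libraries read 112 and 134 in the guide and oligo controls, 1304 and 1329 with targeting guides and 1517 and 1525 with targeting oligos. The guide libraries of IRF7 lay below the oligo libraries in all 4 cells without overlap, with a difference of -0.16 (95% interval -0.24 to -0.078). As IRF7 was picked by its p, this order and interval are no separate evidence.

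The other 6 interferon genes with an unadjusted p under 0.05 went both ways. OAS2, an activator of RNase L, had a difference of 0.28 (95% interval 0.069 to 0.49) that came from CUTLL1, where it read 178 and 143 in the guide and oligo controls, 29.5 and 27.5 with targeting guides and 21.0 and 15.3 with targeting oligos. SAMD9L, a growth-restraining interferon target, differed by 0.10. ISG15, a ubiquitin-like modifier, differed by -0.076, and its levels in the KOPTK1 targeted libraries were 3405 and 3269 with guides against 3859 and 3657 with oligos, while the controls of that line were at 2465 and 2470. IFI6 differed by -0.089, the galectin ligand LGALS3BP by -0.041 and HERC6, a relative of the ISG15 ligase HERC5, by -0.44. IFIT1, which binds viral RNA, read 10.7 and 6.91 in the CUTLL1 controls and 213 and 208 in the KOPTK1 controls, guide first, and its difference was 0.19 with an interval of -0.071 to 0.46.

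Among 24 tested nucleic acid sensors and their adaptors, 0 passed and 0 had an unadjusted p under 0.05 in either direction, with a median of -0.0036. IFI16, a DNA sensor of the nucleus, read 33863 and 33573 in the CUTLL1 controls and 19438 and 19150 in the KOPTK1 controls, guide first. Its difference was 0.024 with an interval of -0.016 to 0.064, and -0.0050 with genes of like GC centred. TBK1, the kinase shared by the RIG-I and STING routes, had the smallest p of the list, with a difference of 0.065 and an interval of -0.010 to 0.14. In TBK1 the guide control lay above the oligo control in CUTLL1 (1474 against 1342) and below it in KOPTK1 (1629 against 1768). The cGAS gene, listed as MB21D1, was at 5.85 or less in every library and was not tested.

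Restriction factors and lentiviral cofactors gave no calls either. Of 24 tested restriction factors 0 passed and 1, TRIM28, had an unadjusted p under 0.05, with a difference of -0.047. TRIM28, a co-repressor that silences proviruses, read 42819 and 43261 in the CUTLL1 controls and 53816 and 52446 in the KOPTK1 controls, so the controls lay on opposite sides in the 2 lines. Of 18 tested cofactors 0 passed, with 0 higher and 2 lower at an unadjusted p under 0.05: HDGFRP2 at -0.054 and HMGA1 at -0.062. PSIP1, which tethers the viral integrase to chromatin, differed by 0.033 (interval -0.041 to 0.11).

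The next lists hold genes that an oligo would meet. All 24 tested members of the RNase H and oligo-binding protein list had an interval within a 1.2-fold difference, with 0 at an unadjusted p under 0.05 in either direction and a median of 0.011. RNASEH1, the enzyme that cuts the RNA strand under an ASO, read 1950 and 1974 in the CUTLL1 controls, 1780 and 1883 with targeting guides and 1791 and 1768 with targeting oligos. In KOPTK1 the controls were at 1871 and 1833, the guides at 1815 and 1827 and the oligos at 1852 and 1729. RNASEH1 overlapped between deliveries in the targeted libraries of both lines, and its difference was 0.024 (interval -0.031 to 0.079). PSPC1, a paraspeckle protein, had the smallest p of the list, with a difference of -0.040 and an interval of -0.081 to 0.00025.

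Of 25 tested endocytosis genes 0 passed, and both genes with an unadjusted p under 0.05 were clathrin light chains, lower with guides. CLTB read 2506 and 2602 in the guide and oligo controls of CUTLL1, 2882 and 2698 with targeting guides and 2943 and 3045 with targeting oligos. In KOPTK1 the controls were at 2338 and 2374, the guides at 2324 and 2267 and the oligos at 2504 and 2436. CLTB lay lower with guides in all 4 cells without overlap, with a difference of -0.082 (interval -0.13 to -0.030), and CLTA differed by -0.047 with the same order in all 4 cells.

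**Figure D2:**
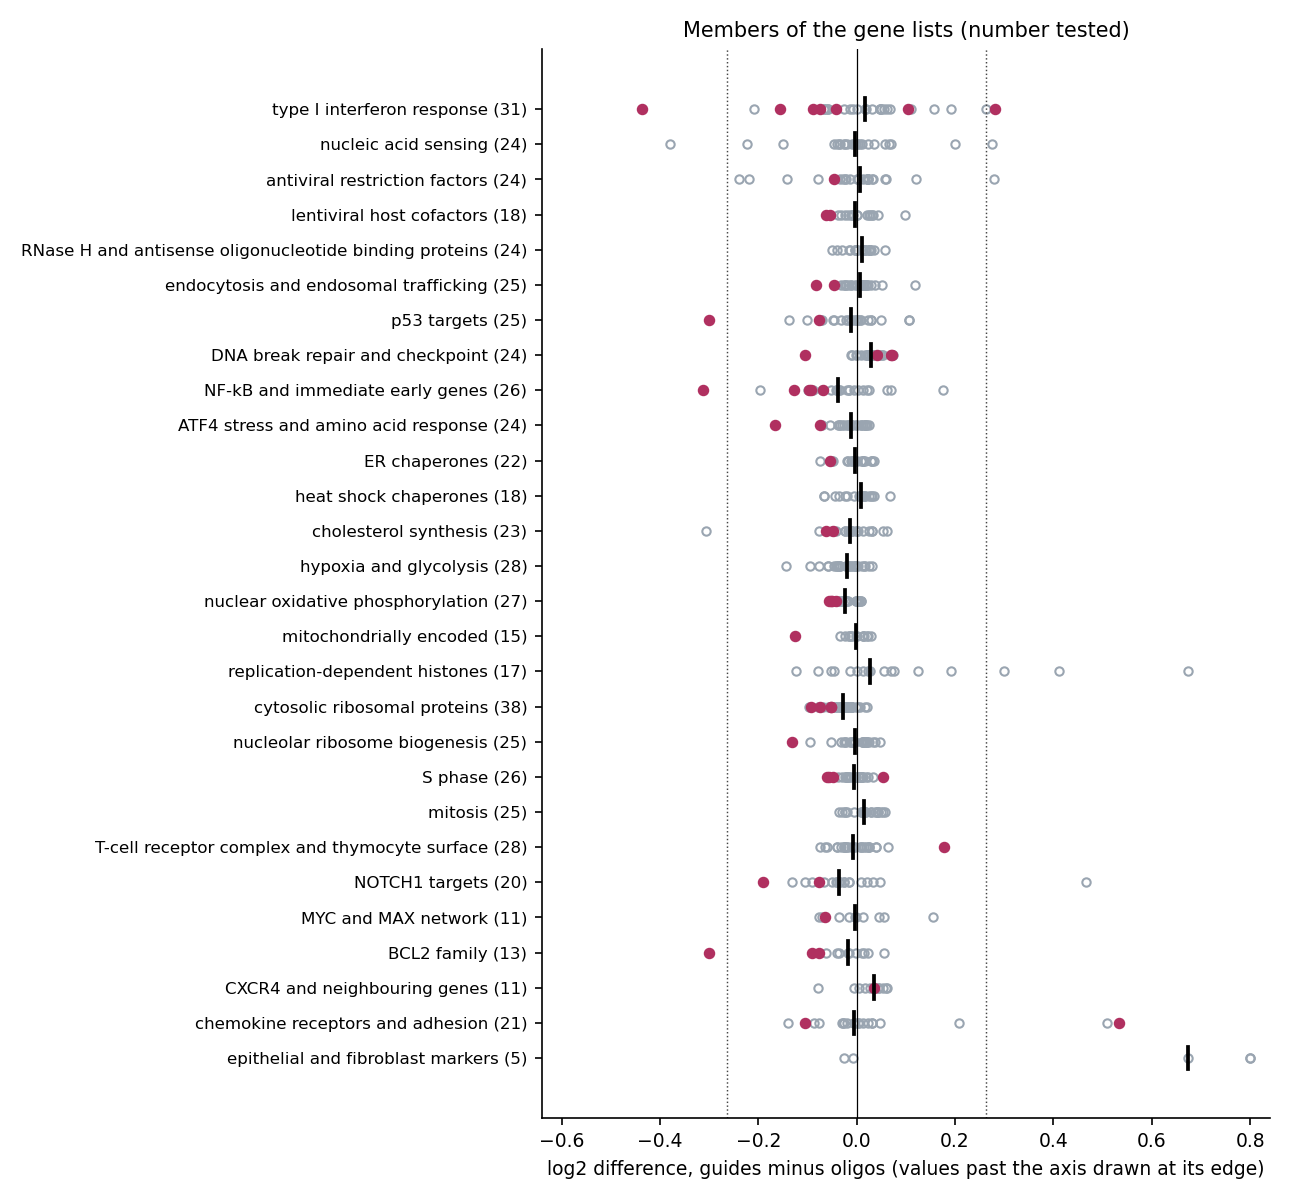
Each row is a gene list with at least 5 tested members, each point a member's log2 difference of guides minus oligos, filled where its unadjusted p was under 0.05, and each bar the list's median. Dotted lines mark a 1.2-fold difference. Medians run from -0.039 to 0.036 except for the 5 tested epithelial and fibroblast markers, at 0.67. Of those 5, 3 lie above 0 (FN1, COL1A1 and COL1A2, all high in KOPTK1 guide 1) and 2 below, and their median is 0 without that library.

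Damage and stress genes followed. Of 25 tested p53 targets 0 passed, with 0 higher and 2 lower at an unadjusted p under 0.05, the death effectors BAX (-0.077) and BBC3 (-0.30, at 18 to 129 counts). CDKN1A, the p21 cell cycle inhibitor and a standard p53 readout, read 125 and 105 in the CUTLL1 controls and 92.0 and 95.8 in the KOPTK1 controls, guide first, and differed by -0.019 (interval -0.15 to 0.11), of either sign under other settings. Of 24 tested break repair and checkpoint genes 0 passed, with 3 higher and 1 lower at an unadjusted p under 0.05. RAD50, a subunit of the complex that binds broken DNA ends, read 5906 and 5885 in the CUTLL1 controls, 4006 and 4120 with targeting guides and 3782 and 3804 with targeting oligos. In KOPTK1 it read 6221 and 6013 in the controls, 4033 and 4135 with guides and 3736 and 3949 with oligos. RAD50 lay higher with guides in all 4 cells without overlap, with a difference of 0.071 (interval 0.026 to 0.12, adjusted p = 0.737 in limma). The other 2 were BRCA1 (0.041) and the end-joining ligase LIG4 (0.070), and the lower one was the break-marking histone H2AFX (-0.10).

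In the NF-kB and immediate early list 19 of 26 members had a difference below 0 (6993 of the 13703 genes tested did), with a median of -0.039 against -0.0012 over all genes. Of the 26, 0 passed, and 0 were higher and 5 lower at an unadjusted p under 0.05 (1.98% and 4.17% over all genes tested). The 5 were JUN (-0.31), JUNB (-0.13), IER2 (-0.093), IER3 (-0.098) and IER5 (-0.069). JUN, a subunit of AP-1, read 1484 and 1466 in the CUTLL1 controls, 2536 and 2411 with targeting guides and 2657 and 2658 with targeting oligos. In KOPTK1 JUN was much lower, at 26.2 and 38.5 in the controls, 69.0 and 49.5 with guides and 94.6 and 80.4 with oligos. Transcripts of this list had a median GC content of 56.3%, with 10 of 26 in the highest of 5 equal groups of tested genes by GC. After centring genes of like GC in each library, a setting chosen after seeing the data, the 5 differences were -0.29 for JUN, -0.068 for JUNB, -0.050 for IER2, -0.068 for IER3 and -0.066 for IER5.

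Other stress and metabolic lists had 0 members past the threshold. Over all genes tested, 1.98% were higher and 4.17% lower at an unadjusted p under 0.05. At an unadjusted p under 0.05 the ATF4 list had 0 higher and 2 lower of 24 (DDIT4 at -0.075 and CEBPB at -0.17), the ER chaperones 0 and 1 of 22 (SYVN1 at -0.055), the heat shock list 0 and 0 of 18 and the hypoxia and glycolysis list 0 and 0 of 28. Cholesterol synthesis had 0 higher and 2 lower of 23: MVD, which makes isopentenyl diphosphate, at -0.063, and EBP at -0.048. Nuclear genes of oxidative phosphorylation had 0 higher and 4 lower of 27 (NDUFS3, NDUFS8, COX6C and CYC1, from -0.043 to -0.056, although CYC1 was at 0.0162 in controls alone and 0.0082 with genes of like GC centred), and the 15 mitochondrially encoded genes 0 higher and 1 lower, MT-ATP8 at -0.13. Cytosolic ribosomal proteins had 34 of 38 members below 0, against 6993 of 13703 among all genes tested, and a median of -0.028, with 0 higher and 4 lower at an unadjusted p under 0.05 (RPL13, RPS19 and RPS23 among them), yet all 38 intervals lay within 1.2-fold.

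Proliferation genes came next. Of 26 S-phase genes 0 passed, with 1 higher (CCNE2, 0.053) and 3 lower (CDT1, POLD1 and UHRF1, from -0.049 to -0.060) at an unadjusted p under 0.05, and of 25 mitotic genes 0 were in either group. In controls alone CDT1 and POLD1 were at 0.0359 and 0.0177, and with genes of like GC centred at 0.00080 and 0.0117, of the opposite sign. The intervals of all 26 and all 25 lay within 1.2-fold. Nucleolar ribosome biogenesis had 0 higher and 1 lower of 25, BOP1 at -0.13. Replication-dependent histones had 0 of 17 at an unadjusted p under 0.05, with wide intervals: 4 of 17 lay within 1.2-fold.

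The T-cell receptor and thymocyte surface list had 1 of 28 members higher and 0 lower at an unadjusted p under 0.05, the lipid-antigen presenter CD1C. CD1C read 1855 and 1789 in the CUTLL1 controls, 565 and 569 with targeting guides and 567 and 541 with targeting oligos. In KOPTK1 it read 1612 and 1597 in the controls, 93.6 and 100.1 with guides and 77.1 and 63.0 with oligos. The deliveries overlapped in the targeted libraries of CUTLL1, and the difference was 0.18 (interval 0.015 to 0.34).

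Of 20 NOTCH1 targets 0 were higher and 2 lower at an unadjusted p under 0.05, HES4 at -0.19 and CDKN2D at -0.077. NOTCH1 itself, the receptor most often mutated in T-ALL, differed by -0.043 (interval -0.089 to 0.0037) and MYC, its main growth target, by -0.036 (interval -0.098 to 0.025). MYC read 10466 and 10295 in the CUTLL1 controls and 17124 and 16789 in the KOPTK1 controls, guide first. The MYC and MAX network had 0 higher and 1 lower of 11 (MXD3, -0.064), and the BCL2 family 0 higher and 3 lower of 13 (BAX, BAD and BBC3). In the highest GC group were 2 of 11 and 4 of 13 of these 2 lists. The shares over all genes tested were 1.98% higher and 4.17% lower.

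CXCR4, the chemokine receptor gene that gives the lncRNA its name, read 24920 and 24422 in the guide and oligo controls of CUTLL1, 27137 and 26597 with targeting guides and 26995 and 27914 with targeting oligos. In KOPTK1 it read 18309 and 17550 in the controls, 25023 and 23881 with guides and 25459 and 24588 with oligos. The deliveries overlapped in the targeted libraries of both lines, and the difference was -0.0065 (interval -0.051 to 0.038, adjusted p = 0.949 in limma), of either sign under other settings. Of 11 tested genes of its list of neighbours 0 passed, and 1, the aspartyl-tRNA synthetase DARS, had an unadjusted p under 0.05 (0.036). In the chemokine receptor and adhesion list 0 of 21 passed, with 1 higher and 1 lower at an unadjusted p under 0.05. The lower one was the lymphocyte receptor S1PR4, at -0.11.

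The 12 genes of smallest p in each direction were picked by rule, none having passed. Those higher with guides included NMT2, RP11-255J3.2, BRAP, the entry MIR3916 (ENSG00000227671.3), SSFA2, SAMD12, DOPEY1, RAD50, CFLAR, HIF1A and SP110. Leaving SAMD12 aside, their differences ran from 0.063 (HIF1A) to 0.29 (RP11-255J3.2). NMT2, which attaches myristate to proteins, read 1278 and 1138 in the CUTLL1 controls, 2409 and 2410 with targeting guides and 2302 and 2250 with targeting oligos. Its KOPTK1 levels were 1472 and 1455, then 3055 and 3097 with guides and 2913 and 2889 with oligos. BRAP, a ubiquitin ligase that binds BRCA1, read 2326 and 2228 in the CUTLL1 controls, 2469 and 2468 with guides and 2251 and 2347 with oligos, and in KOPTK1 3052 and 3026, 3245 and 3281, and 3090 and 3058. Both genes lay higher with guides in all 4 cells without overlap, by 0.086 (interval 0.036 to 0.14) and 0.075 (interval 0.030 to 0.12). HIF1A, the oxygen-regulated transcription factor, and CFLAR, an inhibitor of death receptor signalling, differed by 0.063 and 0.13.

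Those lower with guides were RP3-395M20.12, ATP5D, RPS12, IRF7, BTBD6, EHBP1L1, PPP1R37, AAMP, ROMO1, CIRBP, TMSB4X and C1orf122, with differences from -0.060 (CIRBP) to -0.27 (RP3-395M20.12). ATP5D, the delta subunit of ATP synthase, read 2437 and 2528 in the CUTLL1 controls, 1819 and 1689 with targeting guides and 1973 and 1932 with targeting oligos. The KOPTK1 series for ATP5D was 3027 and 3114, 2144 and 2182, and 2504 and 2462 in the same order. It differed by -0.13 (interval -0.20 to -0.072, adjusted p = 0.737 in limma), and guide and oligo libraries overlapped in no cell. RPS12, a small-subunit ribosomal protein, read 22699 and 23396 in the CUTLL1 controls and 23122 and 25024 in those of KOPTK1, with targeted libraries from 26631 to 29162 with guides and 29315 to 31113 with oligos. Its difference was -0.10 (interval -0.15 to -0.050). With genes of like GC centred, the differences of ATP5D, RPS12 and IRF7 were -0.13, -0.097 and -0.096, and those of NMT2 and RAD50 were 0.073 and 0.051.

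**Figure D3:**
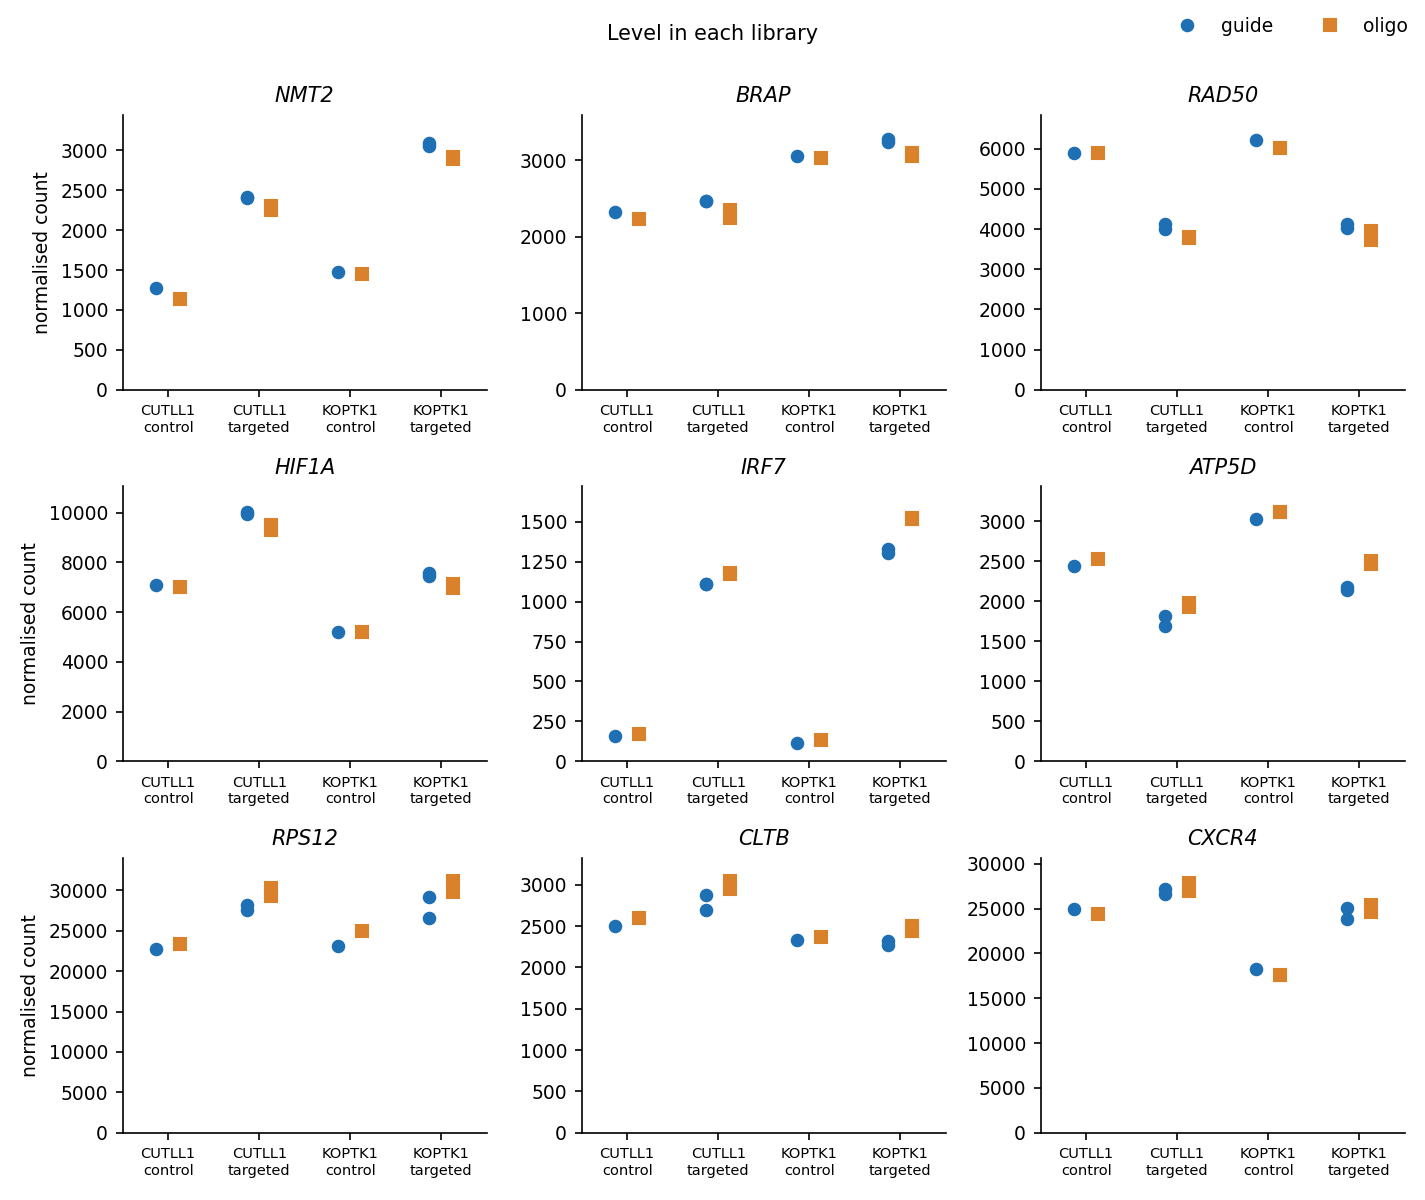
Normalised count of 9 genes in each library, with circles for guide and squares for oligo libraries, by line and arm; axes start at 0. NMT2, BRAP, RAD50 and HIF1A lie slightly higher with guides and IRF7, ATP5D, RPS12 and CLTB slightly lower, while the step from control to targeted libraries is far larger for IRF7 (158 to 1110 in CUTLL1 with guides), and CXCR4 shows no constant order.

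Whether delivery acted differently in the 2 lines was tested as an interaction. None of 13703 genes passed (0%), the smallest adjusted p being 0.0809, with 368 at an unadjusted p under 0.05. Within CUTLL1, 0 genes were higher and 3 lower with guides (0.0219%): ZSCAN18 (-1.69, SE 0.16, adjusted p = 0.00194), GUCY1B3 (-1.35, SE 0.14, adjusted p = 0.00268) and RASA3 (-1.45, SE 0.19, adjusted p = 0.0267). Within KOPTK1, 0 were higher and 1 lower (0.0073%), PCCA (-1.41, SE 0.17, adjusted p = 0.0247).

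All 4 calls are traces of genes that the other line expresses. ZSCAN18, a zinc finger gene, read 1533 to 1663 in KOPTK1, and in CUTLL1 1.95 in the guide control, 8.06 in the oligo control, 0.921 and 0.947 with targeting guides and 6.99 and 4.08 with targeting oligos, which is 1 to 7 recovered reads per library. GUCY1B3, a subunit of the nitric oxide receptor, read 1378 to 1612 in KOPTK1 and 0.921 to 8.06 in CUTLL1. RASA3, a GTPase-activating protein for Ras, read 4905 to 5151 in KOPTK1 and 0.947 to 12.7 in CUTLL1. PCCA, a mitochondrial carboxylase subunit, read 441 to 642 in CUTLL1, and in KOPTK1 2.91 in the guide control, 10.4 in the oligo control, 0 and 0 with targeting guides and 1.75 and 1.34 with targeting oligos. Beside these 4, the genes of smallest interaction p included the pseudogene MSL3P1 (0 to 4.61 in CUTLL1, 318 to 507 in KOPTK1), the haem protein CYB5A (746 to 1200 in CUTLL1, 0 to 3.26 in KOPTK1) and CPXM1 (888 to 1589 and 0 to 5.36). MPP2, the last of the 4 per direction, is of lower level in the line that expresses it, at 34.7 to 158 in CUTLL1 and 0 to 5.87 in KOPTK1. None of the 8 passed the interaction test. Fitted differences at so few reads depend on the added count of 1 and are no measure of fold. In CUTLL1 ZSCAN18 was at -1.72 and GUCY1B3 at -1.22 when only the oligo control of that line was left out. PCCA was at -1.43 in KOPTK1 when only guide 1 of that line was left out. Without the CUTLL1 oligo control and KOPTK1 guide 1, 0 genes were called in either line. The counts moved with single libraries: in CUTLL1, 5 were lower without either control or guide 1, 4 without guide 2 and 22 without oligo 2, and in KOPTK1 the lower count ran from 0 to 5 and the higher from 0 to 3.

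The same order appeared across genes of this kind, described here with no test because the genes were chosen after their values were seen. The set includes the CUTLL1 calls ZSCAN18, GUCY1B3 and RASA3 as well as TRDC, TRBV29-1 and PNMA2. Its genes share the same few libraries, so the counts below are not independent of each other or of those calls. A gene was called restricted when it was at 500 or more in every library of 1 line and averaged under 1% of that line's level in the other, which gave 62 KOPTK1 genes and 89 CUTLL1 genes. Of the 62 KOPTK1 genes, 56 were higher in the CUTLL1 oligo control than in its guide control, 52 were higher with oligos among the targeted libraries of CUTLL1, and 46 in both. TRBV29-1, a T-cell receptor beta variable segment, read 28991 to 45328 in KOPTK1, and in CUTLL1 7.81 in the guide control, 153 in the oligo control, 6.45 and 6.63 with targeting guides and 36.0 and 10.2 with targeting oligos. TRDC, the delta chain constant segment, read 0 and 28.8 in the CUTLL1 controls, 2.76 and 1.90 with guides and 19.98 and 5.11 with oligos. The KOPTK1 controls did not show that order: of the 89 CUTLL1 genes 38 were higher in the oligo control, 45 in the guide control and 6 were equal. In the targeted libraries of KOPTK1, 55 were higher with oligos, and 20 were so in both arms.

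Summed over the restricted genes and set against their mean in the line that expresses them, the share was 0.210% in the CUTLL1 guide control and 0.522% in the oligo control, 0.0784% and 0.0934% with targeting guides and 0.205% and 0.101% with targeting oligos. In KOPTK1 it was 0.328% and 0.329% in the guide and oligo controls, 0.196% and 0.183% with targeting guides and 0.185% and 0.279% with targeting oligos. The CUTLL1 oligo control was highest, both targeting oligo libraries of CUTLL1 lay above both guide libraries, and the KOPTK1 groups overlapped or were nearly equal. The mean difference of guides minus oligos within cells was -0.106 percentage points, and -0.0368 when either CUTLL1 control was left out. For 71 genes restricted in the same way to HPB-ALL, the share was 0.146% ± 0.0497 with guides and 0.170% ± 0.0610 with oligos (SD, n = 6 and 6). How these transcripts came into the libraries was not tested.

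**Figure D4:**
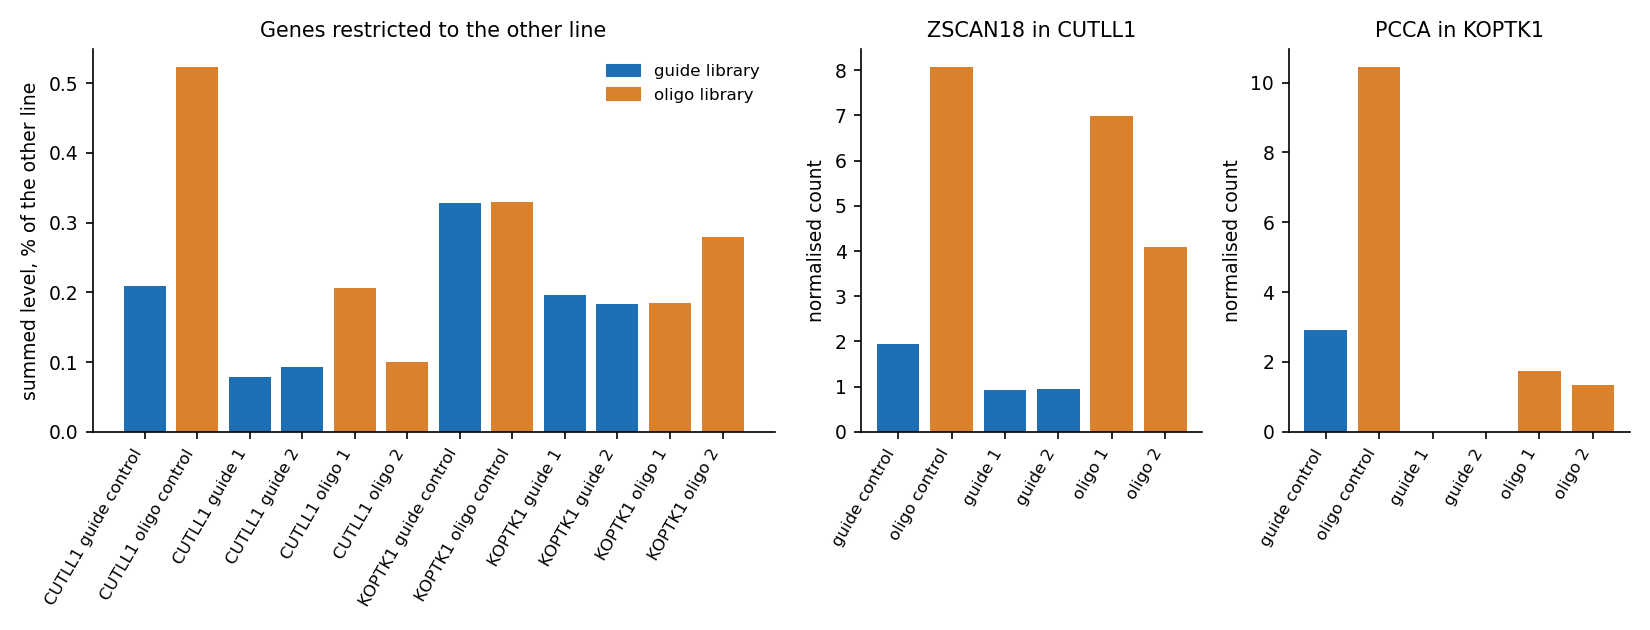
Bars give, per library, the summed level of genes restricted to the other line as a percent of that line (left), and the normalised counts of ZSCAN18 in CUTLL1 and PCCA in KOPTK1. The CUTLL1 oligo control is highest at 0.522%, and ZSCAN18 lies at 4.08 to 8.06 with oligos against 0.921 to 1.95 with guides.

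KOPTK1 guide 1 stood apart in transcripts known from connective tissue cells. FN1 read 264 there and 12.3 or less in the other 11 libraries. COL1A2 and COL3A1, chains of fibrillar collagens, read 276 and 75.1 there and 0 in the other 11. COL1A1 read 426 there and 34.2 or less in the other KOPTK1 libraries, and COL6A2 (36.9) and IGFBP3 (32.02) were listed at 0 in the other KOPTK1 libraries. CUTLL1 expressed 3 of these genes in every library, with COL1A1 at 17.6 to 52.5, COL6A2 at 235 to 364 and IGFBP3 at 13.7 to 78.6, so COL6A2 and IGFBP3 stood out against the other KOPTK1 libraries only. COL1A2, COL3A1, COL1A1, COL6A2 and IGFBP3 are named after their values were seen. The difference for FN1 was 1.72 with an interval of -0.26 to 3.70, and 0.61 with an interval of -0.23 to 1.45 without KOPTK1 guide 1. Their part in other results was not tested, and with KOPTK1 guide 1 and the CUTLL1 oligo control left out the average comparison still called 0 genes in each direction, with 676 higher and 697 lower at an unadjusted p under 0.05.

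Markers of other cell types were summed per library and compared within line and arm, since the arms differ far more than the deliveries. In the targeted libraries the sum of 13 erythroid and megakaryocyte markers was lower with guides without overlap in both lines, at 736 and 761 against 829 and 839 with oligos in CUTLL1 and at 373 and 422 against 442 and 461 in KOPTK1. The erythropoietin receptor EPOR was the only member of that list tested, with a difference of -0.11 (interval -0.22 to -0.014). The sum of 14 myeloid markers, nearly all of it AIF1, had the same order, at 7075 and 7135 against 7400 and 7582 in CUTLL1 and 4348 and 4416 against 4484 and 4637 in KOPTK1, with CD14 at 10.4 or less in every library. The controls showed no such order in either list: the guide control was above the oligo control in CUTLL1 (564 against 560 and 11779 against 11422) and below it in KOPTK1 (233 against 243 and 6532 against 6620).

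The 12 B-lineage markers were lower with guides without overlap in the KOPTK1 targeted libraries (1594 and 1639 against 1701 and 1745). They overlapped in those of CUTLL1 (338 and 350 against 344 and 368). In the controls they summed to 1314 and 1308 in CUTLL1 and to 7796 and 7685 in KOPTK1, guide first. PAX5 was at 1.34 or less, but CD79B, a B-cell receptor chain, read 658.7 and 659.2 in the KOPTK1 controls. The 14 cytotoxic and NK markers overlapped in the targeted libraries of both lines, at 762 to 886 with guides and 837 to 876 with oligos in CUTLL1 and at 425 to 512 and 446 to 449 in KOPTK1. In the highest GC group were 3 of 4 tested B-lineage markers and 2 of 3 tested cytotoxic and NK markers. Of the 13 epithelial and fibroblast markers vimentin, which T cells also express, made nearly all of the sum. That sum was lower with guides without overlap in the CUTLL1 targeted libraries (64148 and 65088 against 66288 and 67157) and overlapped in KOPTK1, and KRT19 was at 0 in every library. The part of these markers in the delivery differences was not tested.

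Measures of the whole library did not separate the deliveries. In an exact permutation test that exchanged delivery within line and arm, two-sided and with a smallest possible p of 0.0139, the 5 measures gave p = 0.736 for recovered reads, 0.750 for genes detected, 0.681 for the mitochondrial share, 0.569 for the histone share and 0.986 for the share of the 10 most abundant genes. Adjusted over the 5, the p-values were 0.938 to 0.986. The mitochondrial share was 2.66% ± 0.39 with guides and 2.65% ± 0.43 with oligos (SD, n = 6 and 6).

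Comparing the arms, the delivery difference in the controls alone called 0 genes (0%, smallest adjusted p 1, 442 at an unadjusted p under 0.05), from 1 library per line and delivery whose spread was taken from the whole fit. Leaving out 1 of the 4 controls gave up to 3 calls in each direction. In the targeted libraries it called 0 as well (0%, smallest adjusted p 0.170, 2420 at an unadjusted p under 0.05), or 1 higher and 44 lower without CUTLL1 guide 1, and the difference between arms called 0 (0%, smallest adjusted p 0.393, 1595 at an unadjusted p under 0.05).

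The targeted libraries are 2 per line and delivery against 1 in the controls, so the 2 counts at an unadjusted p are not on a par. The 2420 genes of the targeted libraries, out of 13703 tested, were also more than the 843 of the average comparison of both arms. The delivery difference was also set against transcript GC content, which is given as a description across genes with no test, since genes are not replicates. GC could be matched by symbol for 11806 of the 13703 genes (86.2%). From the lowest to the highest of 5 equal groups of genes by GC, the median guide minus oligo difference went from 0.039 to -0.048 in the CUTLL1 targeted libraries and from 0.086 to -0.089 in those of KOPTK1. In the controls it did not take that course, at -0.028 and -0.00095 in CUTLL1 and -0.036 and 0.031 in KOPTK1. In the targeted libraries 710 genes higher and 13 lower with guides at an unadjusted p under 0.05 were in the lowest group, and 11 higher and 799 lower in the highest. With 20 GC bins centred in each library, the 2420 genes at an unadjusted p under 0.05 in the targeted libraries became 827, while in the controls 442 became 448. In the average comparison of both arms, 9 of the genes lower with guides at an unadjusted p under 0.05 were in the lowest group and 346 in the highest, and of those higher, 128 and 11. Of the 12 named genes lower with guides, 10 had a GC value and 6 of these were in the highest group, while 8 of the 12 higher ones had a value and all 8 were in the lowest 2 groups.

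By library, the median deviation of high-GC genes minus that of low-GC genes was -0.15 in KOPTK1 guide 2, -0.071 in CUTLL1 guide 2, 0.12 in KOPTK1 oligo 1 and 0.053 in KOPTK1 oligo 2. It was -0.013 in CUTLL1 guide 1 and -0.019 in KOPTK1 guide 1, and 0.034 and 0.052 in the CUTLL1 oligo libraries. In the targeted libraries of both lines each guide library thus lay below each oligo library. The guide and oligo controls were at 0.013 and -0.013 in CUTLL1 and at 0.034 and -0.034 in KOPTK1. These control values mirror each other within a line, so they give no range against which to set the targeted libraries. KOPTK1 guide 2 and KOPTK1 oligo 1, at opposite ends of this measure, are the pair that lay 14.5 apart. Longer transcripts went the other way, with a median difference of -0.019 in the shortest of 5 groups and 0.017 in the longest. With those GC bins centred the average comparison still called 0 genes, with 203 higher and 337 lower at an unadjusted p under 0.05.

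**Figure D5:**
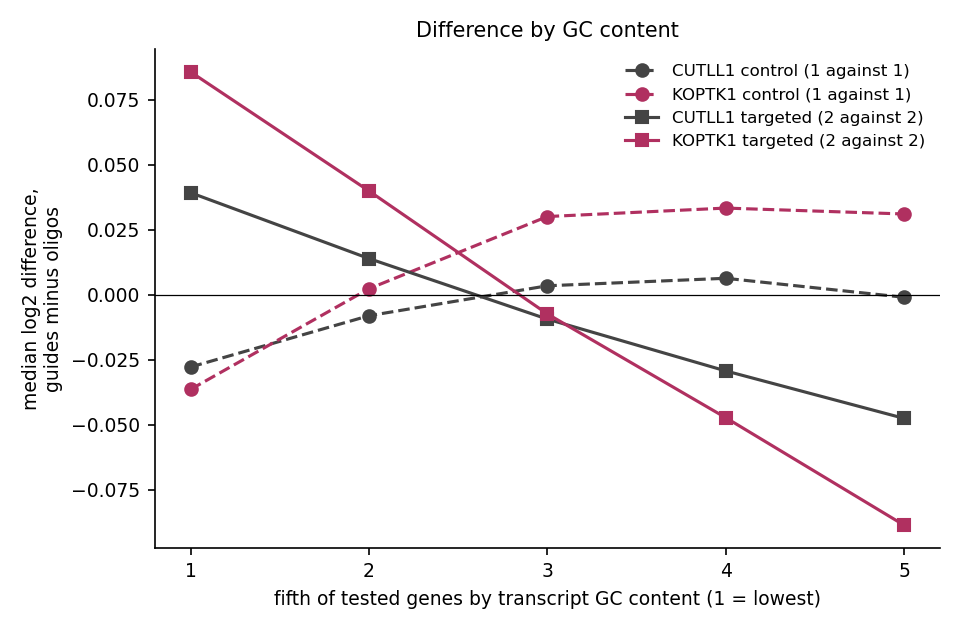
Median log2 difference of guides minus oligos in 5 equal groups of genes by transcript GC content, in each line and arm. The targeted libraries of both lines descend from 0.039 and 0.086 to -0.048 and -0.089, and the single-library controls do not.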

How the data were processed

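RNA-seq of total RNA was measured in the 12 CUTLL1 and KOPTK1 libraries, 6 per delivery. The authors deposited normalised read counts per gene (a signal unit: reads divided by 1 size factor per library), and the submitters' processing notes name STAR 1.4.2, DESeq2 and the build hg19. Not given in the sources used here are the counter, the annotation and the use of strand, so overlapping, antisense and near-identical genes may share reads. Whole reads were taken as recovered in 11 of the 12 libraries used (100% of values within 1e-06). For CUTLL1 oligo 1 the check was not relied on, because its step of 0.999 is near 1. Its values divided by that step stand as reads in depths and distances, and it was left out of edgeR and DESeq2. The design had foreseen counts as possible, and the log-scale test was used because the unit is normalised.

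Values were tested as log2(value + 1), with a mean of 20 or more, in limma 3.58.1 (R 4.3.3, moderated with an intensity trend, 7 residual degrees of freedom, two-sided) with delivery plus line by arm as terms, or delivery within line or arm. Fold changes on this scale understate low genes. Benjamini-Hochberg adjustment ran over all 13703 genes, with a threshold of 0.05. Alternatives were edgeR 4.0.16, DESeq2 1.42.0, other pseudocounts, filters, scalings and subsets, and each library left out. The scripts were tested on simulated data.

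Members, gene lists and tests were chosen with earlier results of these data known. Genes were named by rule: the 12 of smallest p in each direction (since 0 passed), the member of smallest p of each of 32 lists, the 4 of smallest interaction p in each direction, and CXCR4, a few of which are not reported here. Added to these were all list members with an unadjusted p under 0.05 and 7 genes picked for their role (RNASEH1, IFIT1, PSIP1, CDKN1A, IFI16, MYC and NOTCH1), both after values were seen. Transcript GC content and length came from the longest GENCODE transcript of each symbol. Same-numbered targeted guide and oligo libraries deviated with a correlation of 0.044 in CUTLL1 and -0.00081 in KOPTK1, so the numbers were not taken as pairs.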

Additional observations from a re-analysis of the deposited data

Results flagged for a closer look

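Within the 6 guide or the 6 oligo libraries, 10 sets of values had 1 library far from the other 5, by Dixon's rule. That rule marks about 1 group in 20 by chance when the values come from a single population, but each set of 6 here spans 2 lines and 2 arms, so that rate does not apply. In 9 of these sets the library was a control, of which each set holds 2 against 4 targeted ones.

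CD79B, a B-cell receptor chain, read 658.7 in the KOPTK1 guide control (next 134.2) and 659.2 in the KOPTK1 oligo control (next 168.2). CXCR4 was lowest in the KOPTK1 controls, at 18310 with the guide (next 23880) and 17550 with the oligo (next 24420). LIG4 was highest there, at 2504 with the guide (next 1452) and 2509 with the oligo (next 1381). In these 3 genes the guide and oligo controls stood apart together.

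C1orf122 read 1652 in the KOPTK1 guide control (next 1254), MPP2, a membrane scaffold protein, 158.1 in the CUTLL1 guide control (next 56.84), and SAMD9L 858.1 in the KOPTK1 oligo control (next 586.1). For C1orf122 and MPP2 the oligo control of the same line was also the highest oligo library, at 1622 and 130, though not marked by the rule. FN1 read 263.6 in KOPTK1 guide 1 (next 12.32), the 1 such value in a targeted library.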

How the results depend on the processing

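The average guide minus oligo comparison called 0 genes in each direction with every library left out in turn (0 to 0), with the replicate block (0 and 0, with 335 higher and 625 lower at an unadjusted p under 0.05, the numbers not being pairs), and under each other setting except DESeq2 (1 higher, COL1A2) and CUTLL1 alone (1 higher, RNA5-8SP6). The cause of either was not tested, but COL1A2 has reads in 1 library. At an unadjusted p under 0.05 it gave 630 higher and 948 lower with no filter, 976 and 1262 in targeted libraries alone, 171 and 340 in CUTLL1 alone, 158 and 224 in KOPTK1 alone, 177 and 329 on 8 group means, and 171 to 498 and 318 to 971 with 1 library left out. Settings on group means, GC, the restricted genes and the pair of libraries that stand apart were chosen after seeing the data.

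The counts within a line that follow come from the fit of both lines together, not from a fit of 1 line. Within KOPTK1 it gave 0 lower with a pseudocount of 5, no filter, a mean of 100 or more, or without the pair of libraries that stand apart. It gave 2 higher and 4 lower there with quantile scaling, and 1 higher and 3 lower with robust moderation. Leaving out 1 library gave 0 to 5 lower and 0 to 3 higher. Within CUTLL1 the joint fit gave 0 lower without that pair. It also gave 0 without the genes restricted to KOPTK1, a step that removes the called ZSCAN18, GUCY1B3 and RASA3 by construction. It gave 2 to 22 lower and 0 to 1 higher there with 1 library left out. The separate fit of CUTLL1 named above called RNA5-8SP6 and none of the genes that the joint fit called lower within CUTLL1. The line interaction gave 2 higher with robust moderation, and 0 to 11 higher and 0 to 1 lower with 1 library left out. The same ranges were 0 to 3 and 0 to 3 in controls, 0 to 1 higher and 0 to 44 lower in targeted libraries, and 0 to 2 higher and 0 to 0 lower for the arm interaction. Causes were not tested.

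In controls alone the sign turned for 18 named genes: NOTCH1 0.0153, MYC 0.0262, CDKN1A 0.0964, HES4 0.0649, ISG15 0.0281, RPS23 0.0100, CYC1 0.0162, CDT1 0.0359, HMGA1 0.0314, S1PR4 0.0609, TRIM28 0.0112, PSIP1 -0.0839, POLD1 0.0177, CXCR4 0.0451, AIF1 0.0127, PRF1 0.0200, RPL13 0.00090 and HSF1 0.0083. With GC bins centred it turned for IFI16 (-0.0050), CYC1 (0.0082), CDT1 (0.00080), POLD1 (0.0117), HSF1 (0.0165) and CDKN1A (0.0106). It turned on group means for CDKN1A (0.0102) and CXCR4 (0.0064), in CUTLL1 alone for CDKN1A (0.0776), and in KOPTK1 alone for PRF1 (0.0616) and CD79B (-0.198). It turned in edgeR for CD79B (-0.126), in DESeq2 for CD79B (-0.0016) and with quantile scaling for CXCR4 (0.0050). With 1 library left out CXCR4 ran from -0.020 to 0.0053, CDKN1A from -0.0725 to 0.0051 and PRF1 from -0.125 to 0.0038. Library measures ran from -541.5 to 181.8 genes detected, -8222000 to 1845000 reads, -0.0169 to 0.0459 points of mitochondrial share, -0.0269 to 0.0278 points of the top 10 share, 1.24e-05 to 0.000304 points of histone share and -0.141 to -0.0368 points of other-line transcripts. Depth limits genes of few reads: the interval lay within 1.5-fold for 91.9% of all genes and for 99.5% of those at 1000 or more.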
